A study of Mus musculus and Mus musculus x Mus spretus with 8 samples.

Results

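The genes described here encode voltage-gated calcium and sodium channels, measured in 8 single glomus cells of the mouse carotid body. Members were taken by symbol, as every gene whose name is that of a calcium channel pore, alpha2delta, beta or gamma subunit (Cacna1, Cacna2d, Cacnb and Cacng) or of a sodium channel pore or beta subunit (Scn with a number and the letter a or b). This gave 39 of the 24060 symbols in the table, 26 for calcium channels and 13 for sodium channels. The older symbol Scn2a1 falls outside this pattern, and the pore gene it names is given beside the members. Every cell came from a wild type pup of postnatal days 4 to 5, and was picked because it expressed Th, Uchl1 and Kcnk3. The strain was C57BL/6 for 7 cells and C57BL/6 X SPRET/EiJ, a cross with another mouse species, for cell 2. Each cell was lysed, its RNA was turned into cDNA and amplified by PCR, and a transposase-based library was sequenced. The labels tie no cell to an animal, so the 8 cells count as 1 sample. No comparison was tested, and the SDs and ranges below describe these cells only.

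Voltage-gated channels open when the membrane depolarises. A calcium channel of the high-voltage kind consists of an alpha1 pore, an alpha2delta subunit on the outer face that raises the number of channels at the surface, and a beta subunit on the inner face that helps the pore reach the membrane. T-type pores open at lower voltage and can work without these partners, and sodium channels consist of a large pore with small beta subunits that tune its gating. In glomus cells, closure of background potassium channels by low oxygen or acid depolarises the membrane, and calcium entry through voltage-gated channels triggers release of transmitter onto the sinus nerve.

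Total counts ran from 3960200 to 30218206 reads per cell, with the hybrid cell 2 the deepest. Levels are RPM, reads per 1000000 counted in the cell, and a gene is called detected from 1 RPM. Counting error alone considered, a count of 0 allows a true level of as many as 3 reads. This is 0.0993 RPM in the deepest and 0.758 RPM in the shallowest cell. Loss of RNA before sequencing is not covered by this limit. Statements below that a cell lacked a gene therefore refer to its reads, and absence from the cell was not tested. The selection genes were high in all cells, with lowest values of 764 RPM for Th, 331 RPM for Uchl1 and 199 RPM for Kcnk3. With these included, the 6 glomus markers together reached 5938 to 12766 RPM. Of the 6 markers 5 were detected in all cells. Slc18a2 had 0 reads in cell 7, against a median of 850 RPM over the cells. All 6 markers of striated muscle, all 4 of endothelium and all 4 of blood had 0 reads in every cell. Glial markers summed to 0 to 154 RPM, with Gfap, S100b and Sox10 at 0 reads throughout, fibroblast markers to 0 to 184 RPM, and smooth muscle and pericyte markers to 0 to 355 RPM, most of it Pdgfrb in cell 3. The 6 neuronal markers summed to 0 to 613 RPM in 7 cells and to 2810 RPM in cell 4, where Dbh stood at 2588 RPM and Prph at 223 RPM. Nefh, of the same list, went the other way, with 0 reads in cells 2 and 4 and 104 to 613 RPM in the other 6, where it made up most of the neuronal sum. Slc17a6 and Chat had 0 reads in all cells, and Rbfox3 stayed under 1 RPM. Cell 4 is also the cell in which the glomus cell receptor gene Olfr78 was near 0 (0.202 RPM, against 1203 to 4118 RPM in the others), so values that rest on cell 4 are named as such below.

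Of the 39 members 8 (20.5%) were detected in at least 6 cells, against 14.2% of all genes in the table. These were the pore genes Cacna1b, Cacna1c, Cacna1d, Cacna1i, Scn3a and Scn8a and the accessory genes Cacna2d1 and Cacna2d2. Only Cacna2d1 was detected in all 8 cells, against 4.88% of all genes. Another 15 members (38.5%, against 30.5% of all genes) were detected in 1 to 5 cells, and 16 (41.0%, against 55.2%) in none. Of these 16 all but Cacnb4, with 1 read in cell 2, had 0 reads in every cell (15 of 39 members, against 51.7% of all genes). With any 1 cell left out, 5 or 6 members were detected in at least 6 of the remaining 7 (5 without cell 3 or cell 6). Detection in a single cell held for 7 members (17.9%), against 8.33% of all genes. Cacna1c, Cacna2d3 and Cacnb3 were each either at 30 RPM or more (in 2 to 6 cells) or below 1 RPM, which held for 5.26% of all genes.

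Among the 16 undetected members were Cacna1s, Cacng1, Cacng6 and Scn4a of skeletal muscle, and Cacna1f and Cacna2d4 of the retina. Also among them were Scn10a and Scn11a of pain-sensing neurons, and Scn1a of central neurons. The T-type pore gene Cacna1g, the calcium channel beta gene Cacnb4, the gamma gene Cacng7 and the sodium channel beta genes Scn2b and Scn4b were not detected either.

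Over 39 genes and 8 cells there were 312 values. Of these 206 (66.0%, against 73.2% over all genes) were 0 reads, 14 lay above 0 but under 1 RPM, and 92 (29.5%, against 23.0%) were detected. The detected values had a median of 99.1 RPM, against 75.5 RPM over all genes. Of them 15 (16.3%, against 19.2%) were under 10 RPM and 46 were at 100 RPM or more, against 43.6% of detected values over all genes. The members together took 559 to 4558 RPM of a cell, the lowest in cell 5 and the highest in cell 4. From 7 members (cell 5) to 14 (cells 1 and 3) were detected per cell, and this number moved with the 4040 to 6956 genes detected in the same cells (Spearman rho 0.56, Pearson r 0.65, n = 8 cells, both measured in the same libraries). Cell 5 was also the cell with the fewest genes, and the part of this in its low channel levels was not tested.

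**Figure D1:**
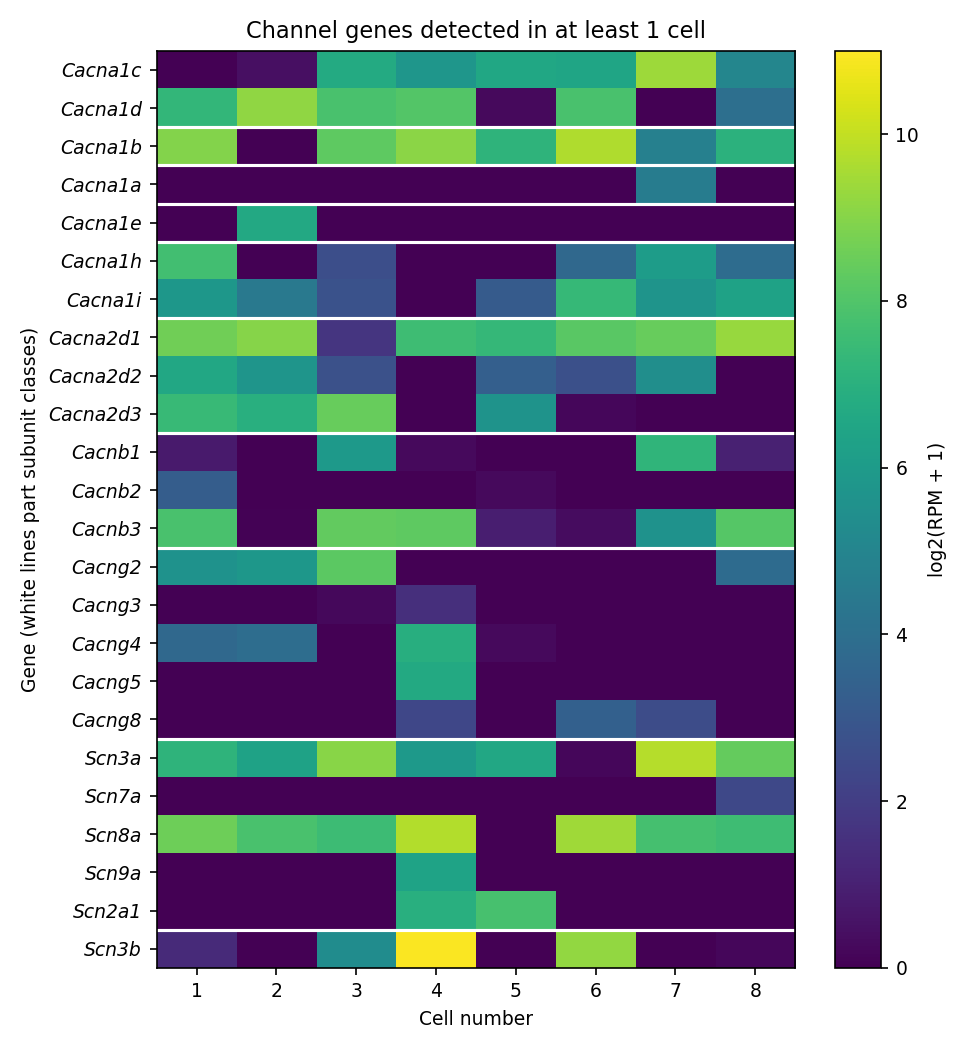
Level of each channel gene detected in at least 1 cell (rows, grouped by subunit class) in each of the 8 cells (columns), as log2(RPM + 1) by colour. Scn2a1 is shown beside the 23 detected members; Cacna2d1 is the single row above 1 RPM in all 8 cells, and the brightest value is Scn3b in cell 4, at 1975 RPM.

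The start regions of these genes differed in their content of the dinucleotide CG. RefSeq windows of 300 bases, from 250 before to 50 after a start on GRCm38.p6 (mm10), were found for 29 of the 39 members. The letters CG, which read the same on both strands, were counted in each, and where a gene has several starts the window richest in CG was taken. The 7 matched members detected in at least 6 cells held 23 to 63 CG, with a median of 42. The 11 members detected in 1 to 5 cells had a median of 17 (2 to 41) and the 11 detected in none a median of 8 (2 to 40). Over all 16781 matched genes of the table the median was 15, over those detected in at least 6 cells it was 25, and over those detected in none it was 5, so a higher content in widely detected genes holds for the table as a whole. The windows of 3 widely detected members and of 2 muscle members without reads are shown, 5′ to 3′ along the gene, with each CG in capitals.
Cacna1b (chr2:24763103-24763402, minus strand): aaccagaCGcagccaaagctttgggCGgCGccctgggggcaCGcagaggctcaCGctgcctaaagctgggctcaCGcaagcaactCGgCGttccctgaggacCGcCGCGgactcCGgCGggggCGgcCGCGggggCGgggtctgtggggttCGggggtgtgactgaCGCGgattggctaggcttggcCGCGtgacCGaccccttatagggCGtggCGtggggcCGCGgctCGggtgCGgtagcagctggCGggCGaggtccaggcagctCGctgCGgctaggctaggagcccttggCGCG
Cacna2d1 (chr5:15934441-15934740, plus strand): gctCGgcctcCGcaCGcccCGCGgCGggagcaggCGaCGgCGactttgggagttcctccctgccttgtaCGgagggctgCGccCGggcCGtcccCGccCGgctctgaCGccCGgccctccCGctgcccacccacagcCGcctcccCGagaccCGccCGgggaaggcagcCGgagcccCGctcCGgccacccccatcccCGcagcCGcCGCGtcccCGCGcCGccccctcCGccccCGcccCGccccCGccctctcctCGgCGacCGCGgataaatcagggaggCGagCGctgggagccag
Scn8a (chr15:100870395-100870694, plus strand): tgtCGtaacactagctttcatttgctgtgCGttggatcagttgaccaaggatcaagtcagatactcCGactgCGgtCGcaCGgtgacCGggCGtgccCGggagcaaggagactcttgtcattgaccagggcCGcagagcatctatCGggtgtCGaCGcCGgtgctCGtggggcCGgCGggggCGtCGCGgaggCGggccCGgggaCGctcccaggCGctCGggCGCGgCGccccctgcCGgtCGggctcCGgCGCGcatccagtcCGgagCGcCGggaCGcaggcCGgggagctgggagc
Cacna1s (chr1:136052561-136052860, plus strand): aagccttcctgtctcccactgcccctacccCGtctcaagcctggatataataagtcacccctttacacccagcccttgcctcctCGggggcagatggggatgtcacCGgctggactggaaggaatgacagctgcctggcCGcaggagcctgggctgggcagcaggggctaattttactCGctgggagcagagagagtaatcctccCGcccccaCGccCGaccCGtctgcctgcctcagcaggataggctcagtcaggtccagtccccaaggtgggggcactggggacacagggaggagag
Scn4a (chr11:106349341-106349640, minus strand): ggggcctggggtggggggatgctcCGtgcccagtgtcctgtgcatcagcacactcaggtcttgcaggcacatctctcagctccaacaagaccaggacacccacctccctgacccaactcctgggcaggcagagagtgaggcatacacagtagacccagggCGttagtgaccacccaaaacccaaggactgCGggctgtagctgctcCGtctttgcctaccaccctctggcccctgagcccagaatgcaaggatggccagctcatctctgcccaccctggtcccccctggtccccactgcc
These windows hold 35, 42 and 38 CG in Cacna1b, Cacna2d1 and Scn8a, a content that 10.5%, 4.56% and 7.55% of the matched genes reach or exceed. In Cacna1s and Scn4a the numbers are 9 and 4, which 62.2% and 77.7% of genes reach. For Scn8a the window shown is the first of its 2 starts, and the other holds 12. Cacnb4 shows that the split was not complete, since it held 40 CG in its richest window and was not detected in any cell. At least 1 CG stood in the richest window of 95.4% of matched genes.

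At the limit of 1 RPM, the N-type calcium channel pore Cacna1b was detected in the most cells of the high-voltage pores, 7 against 6 for Cacna1c and Cacna1d. With 1 read as the limit these genes were level, since each had 0 reads in 1 cell. The N-type channel couples calcium entry to transmitter release in many nerve terminals. Cacna1b (chromosome 2, 24603887 to 24763152, minus strand) stood at 498, 0, 310.3, 550.0, 143, 819, 26.4 and 132 RPM in cells 1 to 8, a median of 227 RPM with an SD of 290 RPM. Where detected it was at 26.4 RPM or more, and it had 0 reads in the hybrid cell 2, the cell sequenced most deeply.

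L-type pores were present in all 8 cells, but as different genes. L-type channels carry long-lasting calcium currents and are the target of dihydropyridine drugs, and Cacna1d channels open at more negative voltages than Cacna1c channels. Cacna1d (chromosome 14, 30039939 to 30491455, minus strand) stood at 156, 578, 231, 262, 0.223, 231, 0 and 15.1 RPM in cells 1 to 8 (median 193, SD 194). Cacna1c (chromosome 6, 118587240 to 119196418, minus strand) stood at 0, 0.364, 106, 54.4, 93.0, 86.4, 674 and 31.9 RPM (median 70.4, SD 223). Each gene was detected in 6 cells and both together in 4 of them, cells 3, 4, 6 and 8. At the limit of 1 RPM, cells 1 and 2 had Cacna1d alone, and cells 5 and 7 Cacna1c alone, so that no cell lacked an L-type pore. Below that limit cell 5 had 1 read of Cacna1d. Each gene was missing in few cells, so absences in different cells say little, and a relation between the genes was not tested. The highest Cacna1c value, in cell 7, came with 0 reads of Cacna1d, and the highest Cacna1d value, in cell 2, with 11 reads of Cacna1c.

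The other high-voltage pores each appeared in a single cell. Cacna1a, the P/Q-type pore of central synapses, reached 23.7 RPM in cell 7, without a read in any other. Cacna1e, the R-type pore, reached 98.2 RPM in cell 2, from 2966 reads, and had none elsewhere. Cell 2 is the cell without Cacna1b, so its high-voltage pores were Cacna1d and Cacna1e.

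T-type pores were carried by Cacna1i and Cacna1h. T-type channels open near the resting potential and are known for shaping excitability and low-threshold calcium entry. Cacna1i (chromosome 15, 80287238 to 80398279) stood at 55.3, 20.9, 5.84, 0, 8.05, 165, 50.3 and 80.0 RPM in cells 1 to 8 (median 35.6, SD 55.0). Cacna1h (chromosome 17, 25374285 to 25433783, minus strand) stood at 203, 0, 5.27, 0, 0, 12.0, 66.1 and 13.6 RPM (median 8.64, SD 70.4). Cacna1i was thus present in 7 cells and Cacna1h in 5, all of which also had Cacna1i. Cell 4 had no read of a T-type pore. Cell 1 was the single cell in which Cacna1h exceeded 100 RPM, and cell 6 the single one for Cacna1i.

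Levels of different genes were compared per length, as RPM per kilobase (kb) of the longest annotated transcript, with differences taken within each cell as log2(RPM per kb + 0.1). On this scale Cacna1b exceeded Cacna1d in every cell but cell 2, and the median difference was 1.74 (SD 4.76, range -9.23 to 6.91). Cacna1d was the higher in 5 cells and Cacna1c in 3 (cells 5, 7 and 8). The median of Cacna1d minus Cacna1c was 1.70 with an SD of 6.04, so the spread between cells is larger than the difference. Cacna1b minus Cacna1a had a median of 7.77 (SD 4.03), a size set by the pseudocount since Cacna1a had 0 reads in 7 cells (4.51 with a pseudocount of 1, 11.08 with 0.01). Cacna1b was the higher in 6 cells, neither was detected in cell 2, and in cell 7 the levels were 2.71 RPM per kb for Cacna1b and 2.99 for Cacna1a. Cacna1h exceeded Cacna1g in the 5 cells that had it, and Cacna1g had 0 reads.

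Summed over their genes and on the per-kb scale, high-voltage pores (7 genes) exceeded T-type pores (3 genes) in every cell. The sums were not scaled for these unequal numbers of genes. The median log2 difference was 3.60 (SD 2.94, range 0.83 to 9.78). The sums for high-voltage pores were 17.5 to 115 RPM per kb and those for T-type pores 0 to 30.3 RPM per kb. The narrowest gaps were in cell 8 (0.83) and cell 1 (1.15). L-type pores together lay below the N-type pore in 5 cells and above it in 3, with a median of -0.95 (SD 3.91). In cell 3 the L-type and N-type sums were level (31.9 RPM per kb each), and in cells 2 and 7 the L-type sum was above the N-type by 9.23 and 4.19. The leading calcium pore per kb was Cacna1b in 6 cells, Cacna1d in cell 2 and Cacna1c in cell 7.

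**Figure D2:**
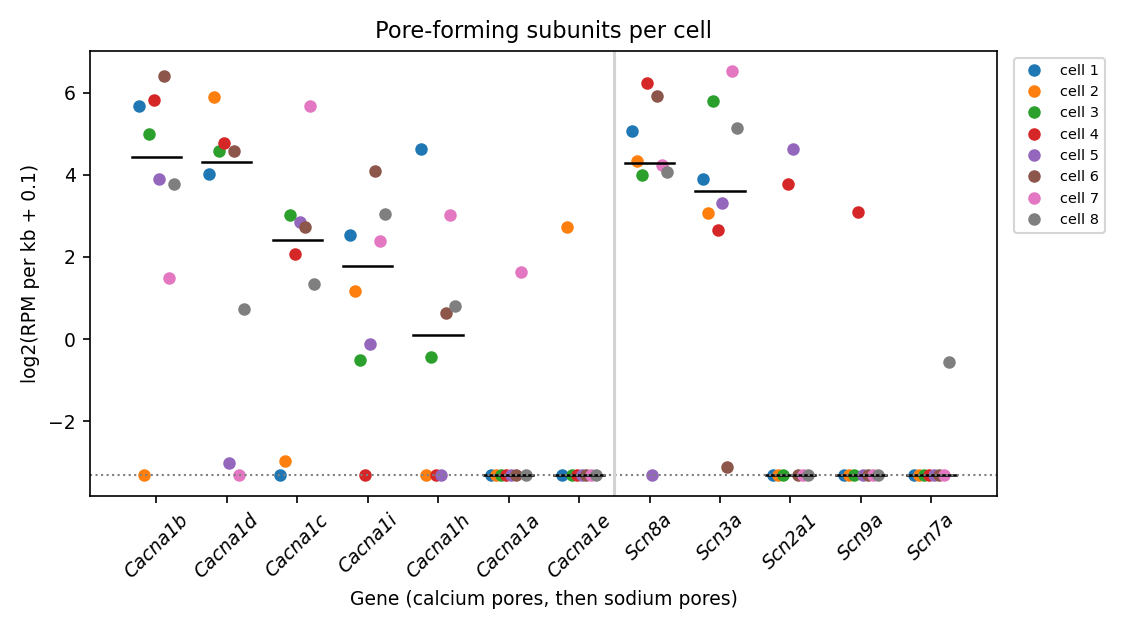
Level per length of the calcium and sodium pore genes detected in at least 1 cell, as log2(RPM per kb + 0.1). Points are cells, black lines medians over the 8 cells, and the dotted line is 0 RPM; Cacna1b, Scn8a and Scn3a each have a single cell on or next to that line (cells 2, 5 and 6).

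Of the alpha2delta genes, Cacna2d1 was the member found everywhere. Its protein is the binding site of gabapentin. Cacna2d1 (chromosome 5, 15934691 to 16374511) stood at 389, 504, 2.26, 190.2, 161, 294, 346 and 629 RPM in cells 1 to 8 (median 320.0, SD 199). It was at 161 RPM or more in 7 cells and low in cell 3, with 12 reads. Cacna2d3 (chromosome 14, 28904943 to 29721864, minus strand) stood at 170.2, 122, 343, 0, 48.7, 0.141, 0 and 0 RPM (median 24.4, SD 123). Its highest value was in cell 3, where Cacna2d1 was lowest. Cacna2d2 (chromosome 9, 107399612 to 107529343) stood at 94.9, 51.6, 5.65, 0, 8.94, 5.37, 42.1 and 0 RPM (median 7.29, SD 34.1). It was detected in 6 cells but passed 100 RPM in none.

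Per kb, Cacna2d1 exceeded both Cacna2d2 and Cacna2d3 in every cell but cell 3. The median log2 difference was 3.32 (SD 3.55) to Cacna2d2 and 4.52 (SD 6.13) to Cacna2d3, and leaving out a cell moved the second to 1.04 (cell 4, 6, 7 or 8) or to 8.00 (cell 1, 2, 3 or 5). The summed level of alpha2delta genes ran from 25.6 to 115 RPM per kb, with an SD of 0.82 log2 units. The sum of calcium pores had a similar SD (0.88), as had that of sodium pores (1.10, or 0.69 with Scn2a1). For the sum of calcium channel beta genes the SD was 4.57. Cells 4 and 8 had Cacna2d1 alone.

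The beta genes split the cells. Cacnb3 (chromosome 15, 98630840 to 98644529) stood at 228, 0.0331, 330, 304, 0.894, 0.283, 47.3 and 274 RPM in cells 1 to 8 (median 138, SD 149). It was thus at 47.3 RPM or more in cells 1, 3, 4, 7 and 8, and in cells 2, 5 and 6 it had 1, 4 and 2 reads. Cacnb1, the beta subunit of skeletal muscle that is also made in neurons, stood at 146 RPM in cell 7, 59.7 RPM in cell 3, 1.02 RPM in cell 8 and under 1 RPM in the others. Cacnb2 was detected in cell 1 at 8.59 RPM, from 34 reads. No beta gene reached 1 RPM in cells 2, 5 and 6, and the sum of all 4 was 0.0161, 0.371 and 0.103 RPM per kb there, against 60.2 to 138 in the other 5 cells. The 2 groups of cells do not overlap, but the groups were read from these values and no test applies.

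All 8 cells therefore had a calcium pore and an alpha2delta gene at 1 RPM or more, and 5 of 8 a beta gene as well. With a single read counted as detection the number was 8 of 8. The 3 cells without a beta gene had high-voltage pore sums of 66.4 (cell 2), 21.8 (cell 5) and 115 (cell 6) RPM per kb, and the 5 cells with one had 17.5 to 87.7. These ranges overlap, and the highest pore sum of all cells, in cell 6, came with 2 reads of Cacnb3. Alpha2delta genes minus beta genes had a median of 0.13 log2 units (SD 4.55), positive in 4 cells and negative in 4, and 1.33 without length scaling. Cacnb3 exceeded Cacnb1 in 4 of the 5 cells with a beta gene and lay below it in cell 7 by 1.30.

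Gamma genes were each detected in at most 4 cells. Most of these proteins are known as partners of AMPA-type glutamate receptors rather than of calcium channels. Cacng2 stood at 47.5, 55.4, 302 and 13.2 RPM in cells 1, 2, 3 and 8 and had 0 reads in the other 4. Cacng4 was detected in cells 1, 2 and 4, at 12.1, 14.4 and 118 RPM, and Cacng8 in cells 4, 6 and 7, at 4.05, 9.47 and 4.93 RPM. Cacng5 (100.1 RPM) and Cacng3 (1.82 RPM, from 9 reads) were detected in cell 4 alone. Of the 8 gamma genes 5 were detected in some cell, each in at most 4, and cell 5 had none at 1 RPM.

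**Figure D3:**
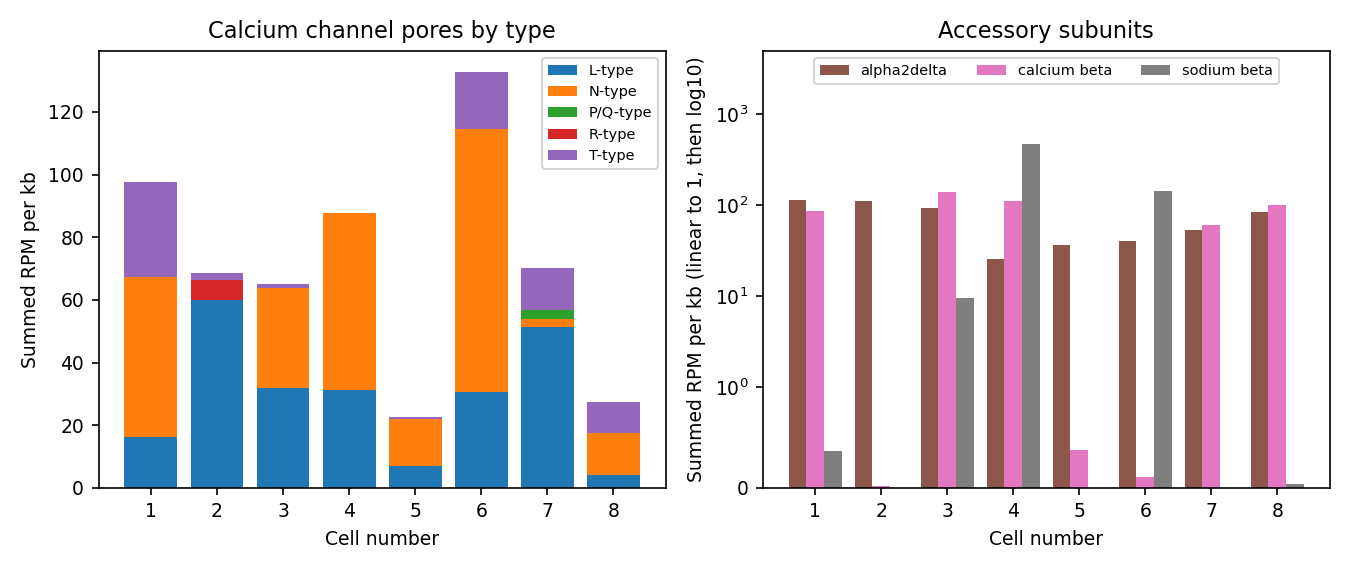
Summed RPM per kb of channel genes in each cell, with calcium pores stacked by type on a linear axis (left) and accessory subunits side by side on an axis that is linear up to 1 and log10 above (right). Calcium channel beta genes are at or under 0.371 RPM per kb in cells 2, 5 and 6, while alpha2delta genes are at 25.6 or more in all cells.

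Sodium pores were present in all 8 cells, in the form of Scn8a, Scn3a or both. Scn8a is the pore found at axon initial segments and nodes of adult neurons, and Scn3a is typical of embryonic and newborn neurons. Scn8a (chromosome 15, 100869858 to 101045938) stood at 383, 230.1, 183, 857, 0, 687, 213 and 191 RPM in cells 1 to 8 (median 222, SD 288). It was at 183 RPM or more in 7 cells and had 0 reads in cell 5. Scn3a (chromosome 2, 65457118 to 65567627, minus strand) stood at 142, 80.0, 531, 59.1, 94.5, 0.141, 882 and 337 RPM (median 118, SD 304). It was at 59.1 RPM or more in 7 cells and had 1 read in cell 6.

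Within cells the order of Scn8a and Scn3a was even. Per kb, Scn8a was higher in cells 1, 2, 4 and 6 and Scn3a in cells 3, 5, 7 and 8, with a median difference of 0.05 log2 units (SD 4.63, range -6.64 to 9.03). With 1 cell left out the median ran from -1.08 (without cell 1, 2, 4 or 6) to 1.17 (without cell 3, 5, 7 or 8). The cell without Scn8a (cell 5) had Scn3a, and the cell with Scn3a under 1 RPM (cell 6) had Scn8a. With a single such cell for each gene this says little, and a relation between the genes was not tested.

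Other sodium pores were found in few cells. Scn9a, the pore of peripheral sensory and sympathetic neurons, reached 82.5 RPM in cell 4, from 408 reads, and had none elsewhere. Scn2a1, outside the symbol pattern, reached 122 RPM in cell 4 and 219 RPM in cell 5, with no read in any other cell, so that the cell without Scn8a had Scn2a1 as its leading sodium pore by RPM. Scn7a, which encodes a sodium-level sensor of glia and some neurons, was at 4.21 RPM in cell 8 and at 0 reads elsewhere. Per kb, Scn8a exceeded Scn9a in all 7 cells that had it, and the median log2 difference over the 8 cells was 7.47 (SD 3.12). Scn3a exceeded Scn9a in 6 cells, and in cell 4 the difference was -0.43. Scn3a shares 8.53% of its transcript, read in windows of 50 bases, with other genes, chiefly Scn2a, Scn9a and Scn1a, which limits how far reads can be told apart. For Scn8a this share was 0.0527%.

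The leading sodium channel beta gene was Scn3b. Scn3b (chromosome 9, 40269217 to 40291618) stood at 1.52, 0, 39.9, 1975, 0, 601, 0 and 0.145 RPM in cells 1 to 8 (median 0.830, SD 698). In cell 4 it was the 27th highest gene of the table, and its level in that cell was the highest of any member in any cell. In cell 6 it also exceeded the sodium pores per kb, and in cells 2, 5, 7 and 8 it had 0 or 1 read. A sodium pore came with a beta gene at 1 RPM or more in 4 of 8 cells (1, 3, 4 and 6), and in cell 1 this rested on 6 reads. Per kb, sodium pores minus beta genes had a median of 6.67 log2 units (SD 4.68) and were negative in cells 4 and 6, by -2.41 and -1.27.

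Sodium and calcium pores had similar summed levels per kb. The sodium pores summed to 48.3, 28.5, 71.5, 89.5, 9.89, 60.1, 111 and 52.4 RPM per kb in cells 1 to 8, and the calcium pores to 97.6, 68.6, 65.0, 87.7, 22.6, 133, 70.1 and 27.3. Calcium minus sodium had a median of 0.49 log2 units (SD 0.90), positive in 4 cells and negative in 4, and -0.19 with Scn2a1 counted among the sodium pores. The median was -0.029 without cell 1, 2, 5 or 6. Cell 5 was the lowest of the cells in both sums, and with Scn2a1 its sodium sum was 34.4 RPM per kb, above that of cell 2.

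Ordered by the median level per kb, the 16 members detected in at least 3 cells began with Cacnb3 (50.4 RPM per kb), Cacna2d1 (43.0), Cacna1b (23.3), Cacna1d (20.01), Scn8a (19.4) and Scn3a (12.4). No neighbours in this order differed by more than the SD of their within-cell difference. Within cells, the median log2 difference went against the order for Cacnb3 minus Cacna2d1 (-0.59, Cacnb3 higher in 4 cells). It also did for Cacna1d minus Scn8a (-1.19, Cacna1d higher in 3 cells). The other steps among the genes named went with the order (0.29, 1.74 and 0.05). The place of Cacnb3 depends on the scaling for its short transcript, since without it the gene would stand below Cacna2d1, Cacna1b, Scn8a and Cacna1d. That place also depends on the cells, since the median of 138 RPM for Cacnb3 became 47.3 without cell 1, 3, 4 or 8 and 228 without cell 2, 5, 6 or 7.

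**Figure D4:**
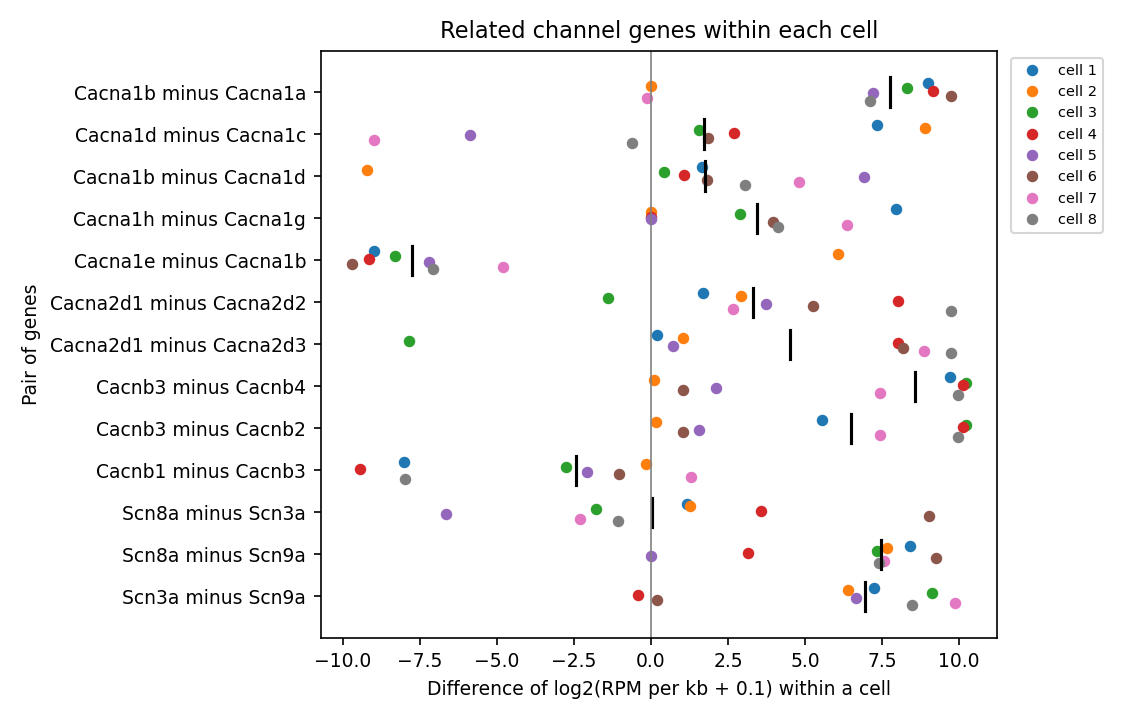
Difference between pairs of related channel genes within each cell, as log2(RPM per kb + 0.1) of the first gene minus the second. Points are cells and black lines medians over the 8 cells; Scn8a minus Scn3a has 4 cells on either side of 0, and Scn2b minus Scn4b, at 0 reads throughout, is not drawn.

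A list of proteins that bind or regulate calcium channels was also measured. Of its 24 genes 9 (37.5%) were detected in at least 6 cells, against 14.2% of all genes, and 6 (25%, against 55.2%) in none. Calm3, which encodes a calcium sensor that binds the pore, had a median of 578 RPM (SD 342), and its level is uncertain because it has near relatives and the handling of shared reads is not given. Stac, an adaptor that favours L-type channels at the membrane, had a median of 485 RPM (SD 273), at 43.5 RPM or more in 7 cells and with 1 read in cell 6. Rims2, a scaffold of release sites that binds beta subunits, stood at 523, 117, 208, 0, 4.02, 1249, 142 and 153 RPM in cells 1 to 8 (median 147), and its relative Rims1, named after its values were seen, had 0 reads in all cells.

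The small GTPases Gem, Rrad, Rem1 and Rem2 form a family that inhibits high-voltage calcium channels and binds their beta subunits. They are named here after their values were seen. Gem stood at 165, 366 and 335 RPM in cells 4, 5 and 6 and had 0 reads in the other 5. Rrad was at 336 RPM in cell 6 and at 0 reads elsewhere. Rem2 was at 9.91 RPM in cell 4 and 67.0 RPM in cell 8, both cells with Cacnb3, and Rem1 had 0 reads throughout. Of the 3 cells without a detected beta gene, cells 5 and 6 had Gem and cell 2 had no gene of this family. The other cell with Gem, cell 4, had Cacnb3 at 304 RPM. A relation between this family and the beta genes was not tested.

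Of 14 measured genes listed as partners of sodium channels 3 (21.4%, against 14.2% of all genes) were detected in at least 6 cells. Another 11 (78.6%, against 30.5%) were detected in 1 to 5 cells, and 0 (against 55.2%) in none. The 3 were Ank3, Nfasc and Nalcn. Nalcn is a separate channel and not a partner of the voltage-gated pores, so the share of 21.4% rests in part on it. Ank3, whose product ankyrin-G anchors sodium channels at the axon initial segment, was detected in all 8 cells at 55.6 to 579 RPM (median 98.0, SD 220.2), highest in cell 4. Nfasc, an adhesion protein of the same site, had a median of 59.6 RPM (SD 240.1) and was at 14.5 RPM or more in 7 cells. Nalcn, the pore of a sodium leak channel, stood at 195, 632, 8.47, 44.5, 2.91, 0.424, 6.94 and 266 RPM in cells 1 to 8 (median 26.5, SD 222).

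**Figure D5:**
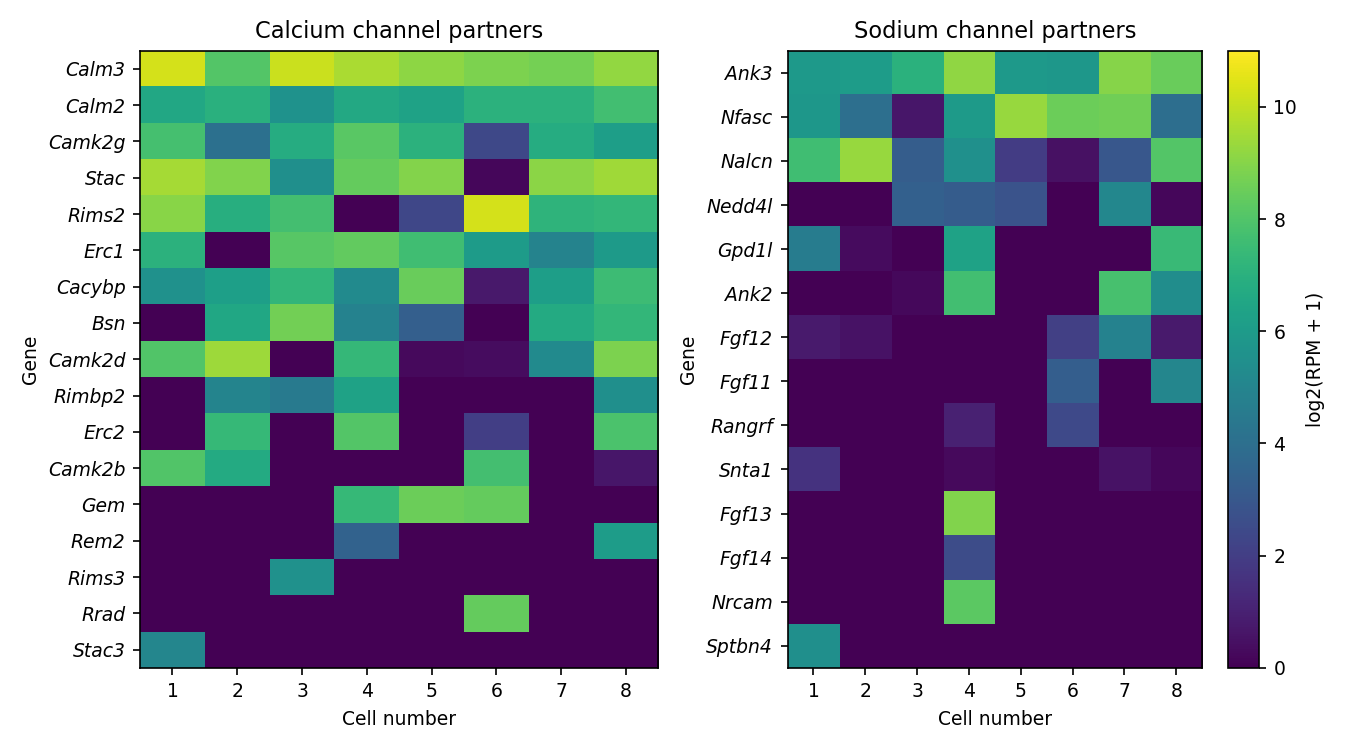
Levels of genes listed as partners of calcium channels (left) and of sodium channels (right, with the leak channel gene Nalcn) detected in at least 1 cell. Colour gives log2(RPM + 1) in the 8 cells. Calm2, Calm3 and Camk2g on the left and Ank3 on the right are at 1 RPM or more in all 8 cells.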

How the data were processed

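For each of 8 cells the authors deposited a raw read count and an RPM value for each symbol; the RPM is a count per 1000000 of the file's total, which recomputation from the counts reproduced to within 3.53e-06. The tool Bowtie and the build mm10 are named, per the submitters' processing notes; for the counter, annotation, strand setting, multiple matches and molecular identifiers the entry is "not given in the sources used here", so PCR copies cannot be separated and levels near overlapping antisense genes (among them those of Cacna1a, Cacna1d, Cacna1h, Cacna2d2, Cacnb1, Cacnb2, Cacng2 and Scn9a) are uncertain. Intervals and limits cover counting error only.

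Positions, transcript lengths and coding lengths came from GENCODE M21 (the same build, by symbol, Scn2a1 as Scn2a), and start windows from RefSeq on GRCm38.p6. Windows of 50 bases of each longest transcript were sought on both strands in all other genes' transcripts. RPM per kb assumes reads spread evenly along a transcript, which was not tested. Computations used numpy 2.4.6 and pandas 2.3.3 and were tested on simulated data. Detection was set at 1 RPM and the pseudocount at 0.1 RPM per kb. Alternatives were limits of 10 RPM and 1 read, thinning to the shallowest cell, pseudocounts of 1 and 0.01, coding length, no length scaling, size factors and leaving out each cell. Coding length came from GENCODE, not from RefSeq proteins as first planned.

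The members, the 15 pairs and the lists were chosen with earlier results of these data known. By rule, any member could be named, with values in every cell for those detected in at least 3 cells, beside the 4 highest of each partner list detected in at least 6 cells and Th, Uchl1, Kcnk3 and Olfr78. The listed partner Mog1 was not matched to a symbol. Counting Scn2a1 with the sodium pores was added after the data were seen. Some genes of the member and partner lists are counted in the totals but not reported here by name.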

Additional observations from a re-analysis of the deposited data

Results flagged for a closer look

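On the log2(RPM + 1) scale, the highest or lowest of the 8 cells was screened with Dixon's 95% limit, which weighs how far it lies from its neighbour against the whole range. The limit served as a screen only, since the cells do not count as replicates. For normally distributed values chance alone passes about 1 in 20. Of the member values 66.0% are 0 reads, so this rate does not apply here. In all 11 of 26 values passed, of which 7 are genes detected in 1 cell only, where the rule is met by construction.

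Of genes detected elsewhere, Cacna2d1 was low in cell 3 (2.26 RPM, next 161), Scn3a in cell 6 (0.141 RPM, next 59.1) and Scn8a in cell 5 (0 RPM, next 183). The summed calcium channel level was low in cell 5, at 465 RPM against 1189 or more in the others. The genes seen in a single cell were Cacna1a in cell 7 (23.7 RPM), Cacna1e in cell 2 (98.2 RPM), Cacnb2 in cell 1 (8.59 RPM), Scn7a in cell 8 (4.21 RPM), and Cacng3 (1.82 RPM), Cacng5 (100.1 RPM) and Scn9a (82.5 RPM) in cell 4. Detection in 1 cell only held for 17.9% of members and for 8.33% of all genes.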

How the results depend on the processing

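Thinning all cells to the shallowest, size factors, coding length and no length scaling changed no direction and no count by over 1.5 times. Sizes moved more: calcium minus sodium pores was 0.13 by coding length, alpha2delta minus beta genes 0.22 by coding length and 1.33 without length scaling, Scn8a minus Scn3a 0.27 and 0.30, and L-type minus N-type -0.63 by coding length. At a limit of 10 RPM no member was detected in all 8 cells, and with 1 read as the limit 3 were, and 8 cells had a calcium pore, an alpha2delta and a beta gene. Cacna1h minus Cacna1g was 6.61 with a pseudocount of 0.01, and Scn8a minus Scn9a 4.22 and 10.78 with 1 and 0.01, since one gene of each pair is at 0 in most cells. For the same reason Cacna1b minus Cacna1a was 4.51 and 11.08 with 1 and 0.01. With a pseudocount of 1, Cacna2d1 minus Cacna2d3 was 2.87 and sodium pores minus sodium beta genes 4.16. With Scn2a1 included, calcium minus sodium pores was -0.19. With 1 cell left out, members detected in at least 6 cells numbered 5 to 6 and those in all cells 1 to 2 (2 without cell 2, 4, 5 or 6), Scn8a minus Scn3a ran from -1.08 to 1.17, calcium minus sodium pores from -0.029 to 1.013 and alpha2delta minus beta genes from -0.16 to 0.43; cells fall evenly on both sides of 0 in each. Medians of RPM with 1 cell left out ran from 143 to 310.3 for Cacna1b, 54.4 to 86.4 for Cacna1c, 156 to 231 for Cacna1d, 5.27 to 12.0 for Cacna1h, 20.9 to 50.3 for Cacna1i, 47.3 to 228 for Cacnb3, 0.141 to 48.7 for Cacna2d3 and 0.145 to 1.52 for Scn3b. No paired analysis was possible because the labels give 1 group. In the shallowest cell a count of 0 allows a level of up to 0.758 RPM by counting error alone, and loss of RNA before sequencing is not covered.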

Other observations

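Cell 4 held a set of genes that other cells lacked, all named here after their values were seen. Besides Scn9a and Cacng5 it was the single cell with Fgf13 (480.1 RPM) and Fgf14 (4.86 RPM), which encode proteins that bind the tail of sodium channel pores, and with Nrcam (295 RPM), an adhesion protein of axon initial segments. It also had the highest Scn8a (857 RPM), Scn3b (1975 RPM) and Ank3 (579 RPM) of the 8 cells, together with Dbh at 2588 RPM and Prph at 223 RPM. It had 0 reads of the neuronal marker Nefh, which 6 other cells expressed, and no reads of Cacna1i, Cacna1h or Cacna2d3. Of these only Cacna1i had reads in all other cells. Nefh also had 0 reads in cell 2, Cacna1h in cells 2 and 5, and Cacna2d3 in cells 7 and 8. Other listed sodium channel partners did not follow Fgf13, Fgf14, Nrcam and Ank3. Sptbn4, Fgf11 and Fgf12 had 0 reads in cell 4. Nfasc was at 62.9 RPM there, against 636 RPM in cell 5, and Ank2 at 204 RPM, against 224 RPM in cell 7. Genes detected in cell 4 only numbered 294 over the whole table, against 111 to 389 in the others.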
